A study of Mus musculus with 8 samples.

Results

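The 8 genes described here encode the type I interferons and interferon-γ that the panel measures, together with 3 subunits of their receptors. They are Ifna1, Ifna2, Ifna4, Ifnb1, Ifng, Ifnar1, Ifnar2 and Ifngr1, found by symbol among the 750 immune-related genes of a NanoString nCounter mouse panel. This assay hybridizes each transcript to a color-coded probe pair and counts the codes one by one. RNA came from whole peritoneal tumors of MC38, a murine colon cancer cell line. All mice were male C57BL/6, 7 to 8 weeks old, and received 500000 MC38 cells intraperitoneally. From day 7, mice received 2 intraperitoneal injections of PBS or of 15 µg RR-CDA, a cyclic dinucleotide that activates STING, and 4 tumors of each group were taken 10 days after the first injection. The data were pooled from 2 experiments. The experiment of each tumor is not given in the sources used here, so experiment and treatment could not be separated.

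Total counts over the 750 genes ranged from 241724 to 403150 in PBS-treated and from 241506 to 414698 in STING agonist-treated tumors. PBS controls 2 and 4 differed by less than the sampling noise (chi-square of 0.404 per degree of freedom over 358 genes with a mean of 20 to 300 counts). The same value was 5.89 to 12.6 in the remaining 11 within-group pairs. They were averaged and counted as 1 sample, so comparisons had n = 3 against 4. The labels do not state that each tumor came from a separate mouse, and p-values measure the spread between these samples. The labels give the tissue as colon. The epithelial genes Epcam, Muc1 and Cdh1 had 4 to 19, 9 to 23 and 9 to 48 raw counts in these tumors. The highest negative control probe of a tumor had 4 to 11.

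STING is a sensor of cyclic dinucleotides whose activation leads through TBK1 and IRF3 to transcription of Ifnb1 and, through IRF7, of the interferon-α genes. All type I interferons bind a receptor of the subunits IFNAR1 and IFNAR2, which drives the interferon-stimulated genes. Interferon-γ, the only type II interferon, is made mainly by T cells and NK cells. It binds IFNGR1 and IFNGR2 and induces antigen presentation genes and the chemokines of CXCR3. Ligand transcripts are short-lived and scarce in whole tissue, whereas the receptor subunits are made by most cell types.

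The ligands were counted near the background. The background of a tumor was taken as the mean plus 2 SD of its 8 negative control probes, and it lay between 8.27 and 11.3 counts in the PBS-treated tumors and between 5.03 and 10.8 in the treated tumors. Of the 20 ligand measurements in each group, 6 were above it in the PBS-treated tumors and 10 in the STING agonist-treated tumors. The level itself was lower in STING agonist 1, 2 and 4 (6.31, 5.03 and 5.50 counts) than in any control. With 1 level of 8.91 counts for all tumors, a setting added after the values were seen, 6 and 8 measurements were above it. A gene was called above background in a group when more than 2 of its 4 tumors exceeded the level. By this rule the 3 receptors were above background in both groups, Ifnb1 and Ifng in the treated group but not in the controls, and the 3 interferon-α genes in neither. Against the highest negative probe, or the level without that probe, Ifna1 was also called in the treated group, in 3 and 4 tumors. Against the plain mean of the negative probes, all 5 ligands were called there and all but Ifna4 in the controls. These tallies count controls 2 and 4 as 2 tumors. Taken as 1 sample, as in the comparisons below, the controls had 6 of 15 ligand measurements above background beside 10 of 20, and Ifna1 was above it in 2 of 3 control samples, which would call it there. At the level without the highest negative probe, Ifna2 and Ifnb1 were also above in 2 of 3 control samples and would be called there. This tally was added after the values were seen. The difference in detection itself was not tested.

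**Figure D1:**
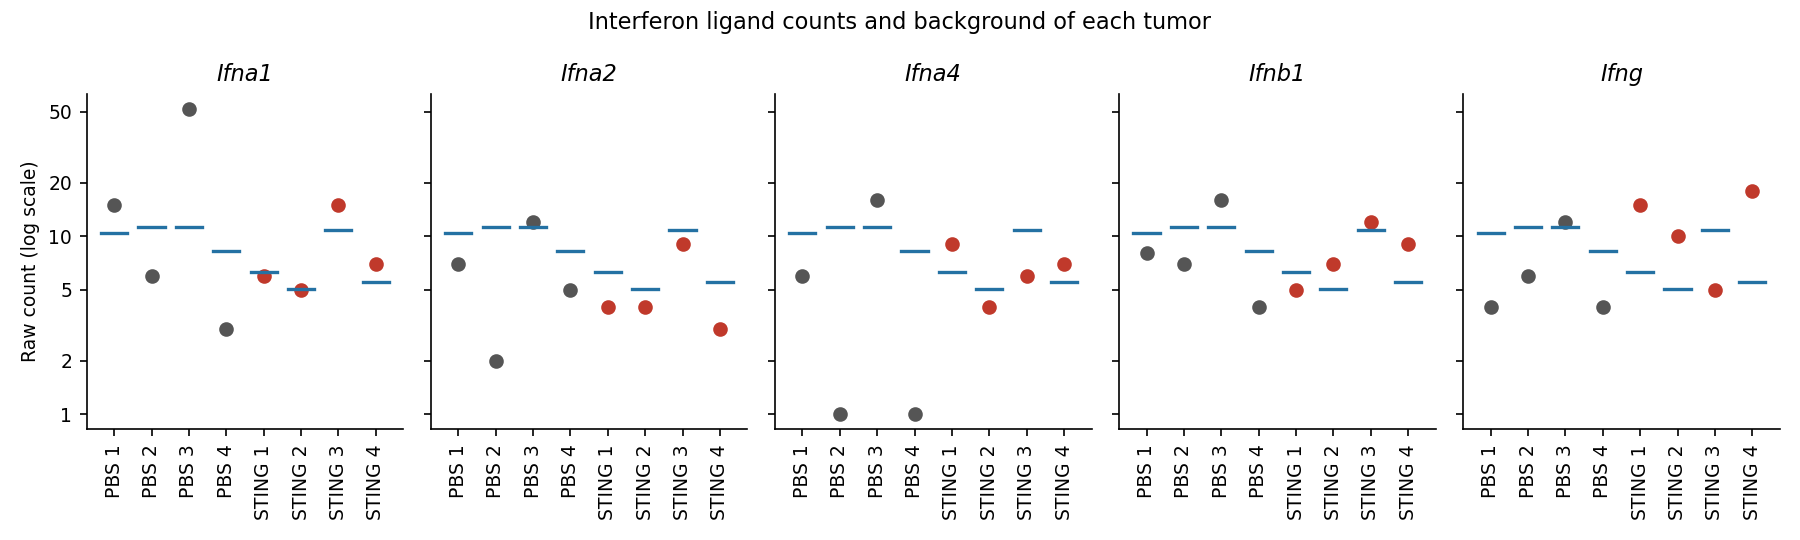
Raw counts (log scale) of the 5 interferon ligands in each tumor, PBS in grey and STING agonist in red, with the background of that tumor as a blue line. PBS control 3 was above its line in all 5 ligands, and Ifng was above it in STING agonist 1, 2 and 4.

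Ifna1 (NM_010502.2), an interferon-α gene, had 15, 6, 52 and 3 raw counts in PBS controls 1 to 4 and 6, 5, 15 and 7 in STING agonist 1 to 4. The 52 counts of control 3 were the highest ligand count of the series. Ifna2 (NM_010503.2) had 7, 2, 12 and 5 counts in the controls and 4, 4, 9 and 3 in the treated tumors. Ifna4 (NM_010504.2), one of the interferon-α genes induced early, had 6, 1, 16 and 1 counts in the controls and 9, 4, 6 and 7 in the treated tumors. No fold change is given for these 3 genes, since neither group was above background when each tumor was counted. The mouse has 14 protein-coding interferon-α genes in the RefSeq table, in a cluster with Ifnb1 on chromosome 4, and 3 of them were on the panel. Their copies are alike in sequence and the probe sequences were not used here, so the assignment of these counts to single interferon-α genes is uncertain.

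Ifnb1 (NM_010510.1), the interferon-β gene and the direct transcriptional target of the STING pathway, had 8, 7, 16 and 4 raw counts in the controls and 5, 7, 12 and 9 in the treated tumors. The ranges overlapped. It exceeded the background in 1 of 4 controls and 3 of 4 treated tumors, but in 2 of 4 treated tumors with the common level of 8.91 counts or with the mean plus 3 SD of the negative probes, which ends the call. After scaling to the housekeeping genes, PBS-treated tumors had 8.45 ± 2.71 (SD, n = 3) and treated tumors 8.65 ± 2.67 (SD, n = 4) normalized counts of it. The log2 fold change of -0.017 had a 95% confidence interval of -0.85 to 0.82 (edgeR's quasi-likelihood test, SE 0.37, adjusted p = 0.993 with Benjamini-Hochberg adjustment over the panel). Differences within this interval are compatible with these counts, and the interval is not a limit of detection.

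Control 3 was the highest tumor in Ifna1, Ifna2, Ifna4 and Ifnb1 by raw count, and in Ifna1 and Ifna4 after scaling, where STING agonist 3 was the highest in the others. This tumor was also high in scarce transcripts in general, a comparison added after the values were seen. Of the 233 panel genes with a mean under 20 raw counts, 64 (27.5%) had their highest normalized count in control 3, against 12 in control 1, 8 each in controls 2 and 4, and 19 to 42 in the treated tumors. The median normalized count of these 233 genes was 9.37 in control 3 and 3.99 to 7.15 in the other 7 tumors. Its part in the ligand counts was not tested. Without control 3, the log2 fold change of Ifnb1 was 0.26 (adjusted p = 0.744, edgeR's quasi-likelihood test).

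The ligand and receptor genes differed in the sequence before their start sites, shown here for the ligands that define the type I and type II response and for a receptor of each. All 8 genes matched an entry of the RefSeq promoter table (GRCm38.p6), and the 250 bases upstream of the start are printed. Capitals mark the letters AANNGAAA on either strand, the core bound by interferon regulatory factors.
Ifnb1, chr4:88522795-88523044, minus strand: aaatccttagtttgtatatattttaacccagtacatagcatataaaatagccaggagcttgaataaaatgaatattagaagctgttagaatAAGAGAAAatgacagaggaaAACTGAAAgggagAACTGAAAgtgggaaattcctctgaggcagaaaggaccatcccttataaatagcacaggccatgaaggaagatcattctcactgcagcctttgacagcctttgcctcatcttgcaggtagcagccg
Ifna4, chr4:88841566-88841815, plus strand: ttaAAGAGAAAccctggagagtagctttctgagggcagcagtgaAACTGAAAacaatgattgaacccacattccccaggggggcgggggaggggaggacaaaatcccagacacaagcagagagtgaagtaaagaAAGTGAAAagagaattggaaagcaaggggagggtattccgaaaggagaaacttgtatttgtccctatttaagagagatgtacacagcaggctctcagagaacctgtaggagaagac
Ifng, chr10:118440796-118441045, plus strand: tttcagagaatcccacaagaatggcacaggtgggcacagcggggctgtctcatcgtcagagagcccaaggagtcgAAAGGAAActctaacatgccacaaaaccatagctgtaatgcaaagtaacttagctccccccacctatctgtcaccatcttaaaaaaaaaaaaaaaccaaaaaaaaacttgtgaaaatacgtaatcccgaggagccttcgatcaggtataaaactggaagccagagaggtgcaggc
Ifnar1, chr16:91484965-91485214, plus strand: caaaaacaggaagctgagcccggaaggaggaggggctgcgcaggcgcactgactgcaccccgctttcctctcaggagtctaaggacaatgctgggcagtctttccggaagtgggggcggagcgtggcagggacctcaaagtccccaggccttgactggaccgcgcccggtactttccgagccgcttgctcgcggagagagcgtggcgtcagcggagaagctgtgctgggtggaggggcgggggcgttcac
Ifngr1, chr10:19591699-19591948, plus strand: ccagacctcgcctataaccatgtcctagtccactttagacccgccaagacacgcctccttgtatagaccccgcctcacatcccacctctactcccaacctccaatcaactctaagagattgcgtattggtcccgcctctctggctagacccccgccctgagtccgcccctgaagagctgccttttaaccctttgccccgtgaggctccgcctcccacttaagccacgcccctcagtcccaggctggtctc
The core was present 3 times before Ifnb1 and Ifna4, 2 times before Ifna2, and 1 time before Ifna1 and Ifng. It was not in this window of the 3 receptor genes. Of the 32851 promoters in the table, 21.3% held it at least once and 0.849% held it 3 times or more. TATAAA, whose last 2 letters can be the first of the core, was found 2 times before Ifnb1 and 1 time before Ifng, and 12.4% of promoters held it. GC content was 39.6% to 46.8% before the 5 ligands and 54.0% to 65.6% before the 3 receptors, with 1 to 6 CG dinucleotides against 11 to 19. These matches describe letters and are not measured binding.

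Of Ifnb1 and Ifng, the ligands above background in a group when each tumor was counted, Ifng (NM_008337.1) had the larger difference. It had 4, 6, 12 and 4 raw counts in PBS controls 1 to 4 and 15, 10, 5 and 18 in STING agonist 1 to 4. Normalized counts were 3.70, 5.83 and 8.65 in control 1, the mean of controls 2 and 4, and control 3, and 17.5, 12.2, 5.11 and 15.9 in the treated tumors. Thus 3 of 4 treated tumors were above every control, and STING agonist 3 lay within the control range. The group means were 6.06 ± 2.48 (SD, n = 3) and 12.7 ± 5.51 (SD, n = 4). The log2 fold change was 1.02 (edgeR's quasi-likelihood test, SE 0.49, 95% confidence interval -0.095 to 2.14, adjusted p = 0.299). It did not pass the adjusted threshold of 0.05, nor did the exact two-sided permutation test of the difference over 35 arrangements (p = 0.143). The control mean is at background, so the fold rests on few counts. After subtraction of the negative probes the log2 fold change was 2.01 (adjusted p = 0.388, edgeR). Detection of Ifng in 3 of 4 treated tumors was found with the common level and with the mean plus 3 SD as well.

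The cell types known to make interferon-γ were read from marker lists. T cell markers (7 of 7 on the panel) summed to 174, 107 and 195 normalized counts in the 3 control samples and to 409.95, 221, 208 and 384 in STING agonist 1 to 4, above every control in 4 of 4 tumors. The groups did not overlap in Cd3e, Cd3g and Cd8b1, whereas Cd3d, Cd247, Cd8a and Cd4 overlapped, with folds of 1.29, 1.59, 2.44 and 1.02. The Cd3d probe had 47 to 109 raw counts, that of Cd3g 15 to 146 and that of Cd4 1 to 11, near background. Those of Cd3e and Cd8b1 had 5 to 42 and 2 to 21, with the lowest in controls and near background. The lack of overlap in Cd3e and Cd8b1 thus rests on few counts. NK cell markers (5 of 5) summed to 273, 160 and 244 in the controls and to 441, 241, 274 and 461 in the treated tumors, led by Klrd1 with 87 to 342 raw counts. Ptprc, the gene of CD45, had 108, 42.0 and 111 normalized counts in the controls and 257, 166, 140.0 and 267 after treatment. As in Ifng, the highest sums of T and NK cell markers were in STING agonist 1 and 4. Of the NK cell markers, Klrd1 and Klrk1 were highest in these 2 tumors, whereas Ncr1, Klrb1c and Klra1 were not. Ncr1 had a fold of 1.07 and Klrb1c, with 4 to 16 raw counts near background, 1.01. Klra1 had 1 to 4 raw counts, under the background of every tumor, so no fold is given for it. In whole tumors, more cells of a type and more RNA per cell cannot be told apart, and the part of these cells in the Ifng counts was not tested. STING agonist 4 also held hepatocyte transcripts, with 8 of 10 listed markers on the panel summing to 1244 normalized counts against 23.9 to 65.6 in the other tumors, most of it Ambp with up to 864 raw counts. Without this tumor the log2 fold change of Ifng was 0.88 (adjusted p = 0.533, edgeR), and without control 3 it was 1.41 (adjusted p = 0.220, edgeR).

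The receptors were measured at 275 to 632 raw counts, far above background in all 8 tumors. Ifngr1 (NM_010511.2), the ligand-binding chain of the interferon-γ receptor, had 493, 441 and 455 normalized counts in control 1, the mean of controls 2 and 4, and control 3. In STING agonist 1 to 4 it had 562, 527, 548 and 547. Every treated tumor was above every control. The means were 463 ± 26.96 (SD, n = 3) and 546 ± 14.4 (SD, n = 4), a fold of 1.18. The exact two-sided permutation test gave p = 0.029, the smallest that 35 arrangements allow, without adjustment for the other genes tested. In the test over the panel the log2 fold change was 0.24 (edgeR's quasi-likelihood test, SE 0.13, 95% confidence interval -0.054 to 0.53, adjusted p = 0.354). Groups that do not overlap were common on this panel, with 16.8% of the 750 genes higher in all treated tumors and 1.47% lower. Of the 8 interferon genes, 1 was of this kind.

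Ifnar1 (NM_010508.1), the signal-transducing chain of the type I receptor, had 409, 385 and 418 normalized counts in the 3 control samples and 471, 422, 434 and 413 in the treated tumors. The groups overlapped, with 3 of 4 treated tumors above every control. The log2 fold change was 0.11 (edgeR's quasi-likelihood test, SE 0.13, 95% confidence interval -0.20 to 0.41, adjusted p = 0.738). Ifnar2 (NM_001110498.1), the high-affinity chain, had 354, 399 and 343 normalized counts in the controls and 376, 336, 341 and 364 in the treated tumors, again overlapping. Its log2 fold change was -0.044 (95% confidence interval -0.36 to 0.27, adjusted p = 0.911, edgeR). The intervals bound a rise at 0.41 for Ifnar1 and 0.27 for Ifnar2 and a decrease at -0.20 and -0.36, all on the log2 scale with housekeeping scaling. Ifnar2 and Ifnar1 are close neighbours on chromosome 16, with 1 protein-coding gene, Il10rb, between them in the RefSeq table.

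**Figure D2:**
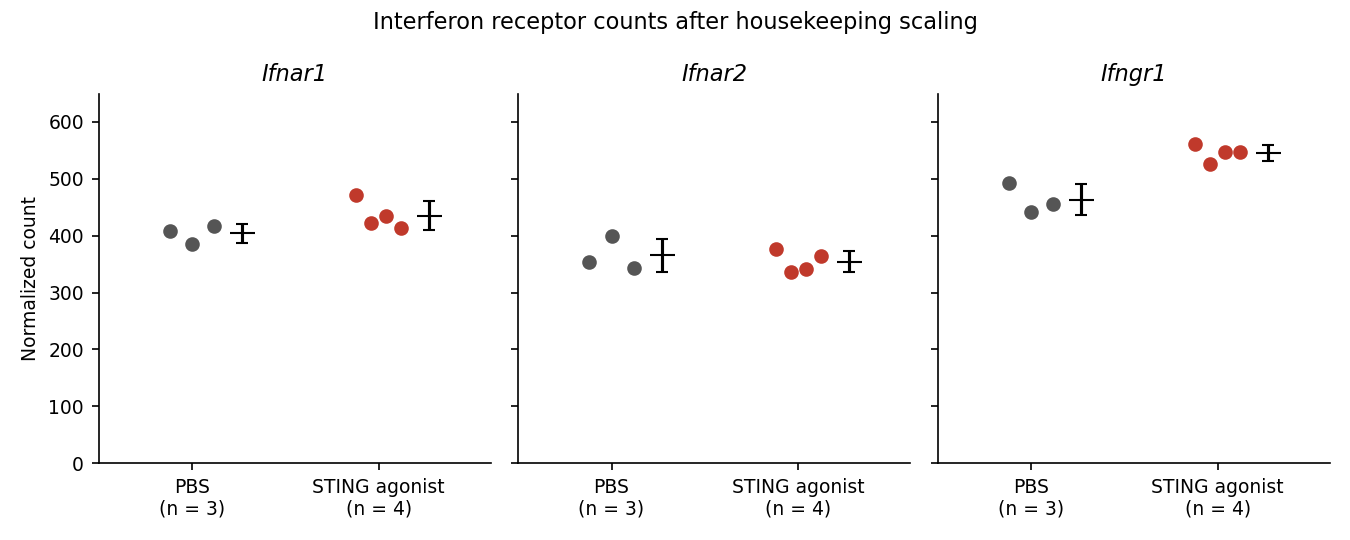
Counts of the 3 receptor genes scaled to the housekeeping genes, by tumor (points; controls 2 and 4 as 1 point) with mean and SD. Ifngr1 was between 441 and 493 in PBS-treated and between 527 and 562 in STING agonist-treated tumors, whereas Ifnar1 and Ifnar2 overlapped; under TMM scaling the difference in Ifngr1 was -0.013 on the log2 scale.

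The receptors varied less between tumors than most panel genes of like counts. The coefficient of variation of Ifngr1 was 5.82% in the controls and 2.63% in the treated tumors, where counting alone gives 4.56% and 4.40%. The counting values are for a single tumor at the mean raw count of its group. They leave out the averaging of controls 2 and 4 and the noise of the scaling, so they are only a rough guide. Ifnar1 had 4.14% and 5.84% (counting, 4.88% and 4.94%) and Ifnar2 8.10% and 5.30% (counting, 5.09% and 5.46%). Of 166 panel genes with a mean of 200 to 1000 raw counts, the median coefficient of variation was 18.9% in the controls and 15.6% in the treated tumors, and those with a lower one than the receptor numbered 12 and 2 for Ifngr1, 5 and 17 for Ifnar1, and 22 and 13 for Ifnar2, in controls and treated tumors. This comparison was added after the values were seen.

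The direction of the receptor differences depended on the scaling. Over the 750 genes, the log2 fold changes had a median of 0.21 with the housekeeping genes and -0.021 with TMM normalization, which scales to the bulk of the panel. Relative to these medians, Ifngr1 lay with the panel under both, at 0.24 and -0.013. Of all panel genes, 52.5% had a lower log2 fold change than Ifngr1. Ifnar1 turned from 0.11 to -0.14 and Ifnar2 went from -0.044 to -0.31 under TMM, both below the panel median under either scaling. Of the ligands, Ifng was above the median under both, at 1.02 and 0.80, with controls at background.

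**Figure D3:**
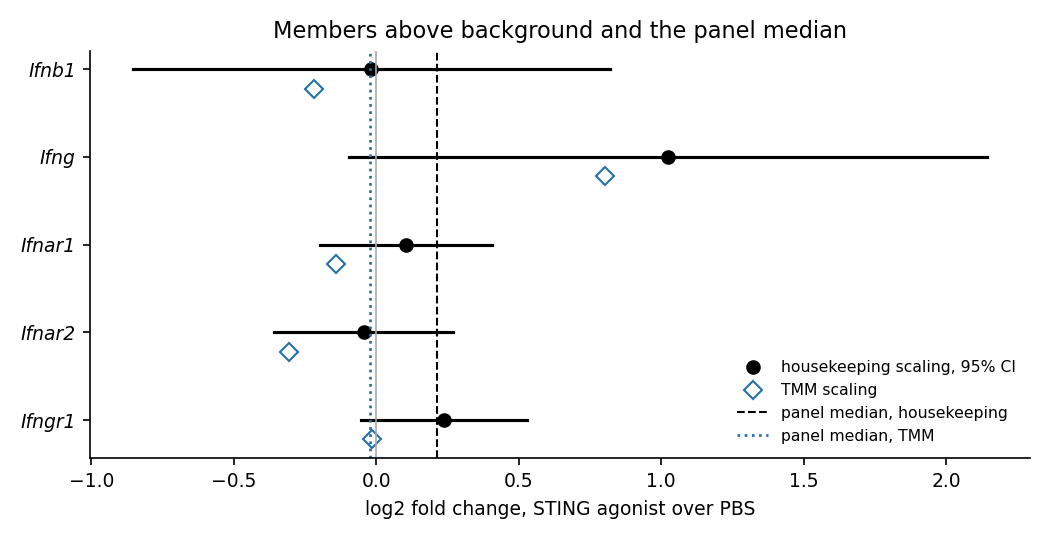
Log2 fold change of STING agonist-treated over PBS-treated tumors for the 5 genes above background in at least 1 group, with the 95% confidence interval (black, housekeeping scaling) and the value under TMM scaling (blue diamonds). Dashed and dotted lines are the medians of the panel, 0.21 and -0.021; the intervals of all 5 genes included 0, and Ifnar1 and Ifngr1 changed sign between the scalings.

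A ratio of 2 probes within a tumor does not depend on the scaling. It also carries the efficiency of each probe, so it compares tumors and not transcript levels. The ratio of Ifngr1 to Ifnar2 counts was 1.39, 1.11 and 1.33 in control 1, the mean of controls 2 and 4, and control 3, and 1.49, 1.57, 1.605 and 1.505 in STING agonist 1 to 4. All treated tumors were above all controls, and the treated tumors lay close together. The mean log2 ratio was 0.34 ± 0.18 (SD, n = 3) and 0.62 ± 0.049 (SD, n = 4), a difference of 0.28 (exact two-sided permutation test, p = 0.029, and 0.086 after Benjamini-Hochberg adjustment over the 3 pairs of receptors). Ifngr1 to Ifnar1 differed by 0.13 (exact permutation test, p = 0.086, adjusted 0.129) and Ifnar1 to Ifnar2 by 0.15 (exact permutation test, p = 0.171, adjusted 0.171). The groups overlapped in both. The 3 ratios were chosen after the values were seen, and none passed the adjusted threshold. Such a ratio sets the 2 probes against each other and does not tell which of them differed.

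**Figure D4:**
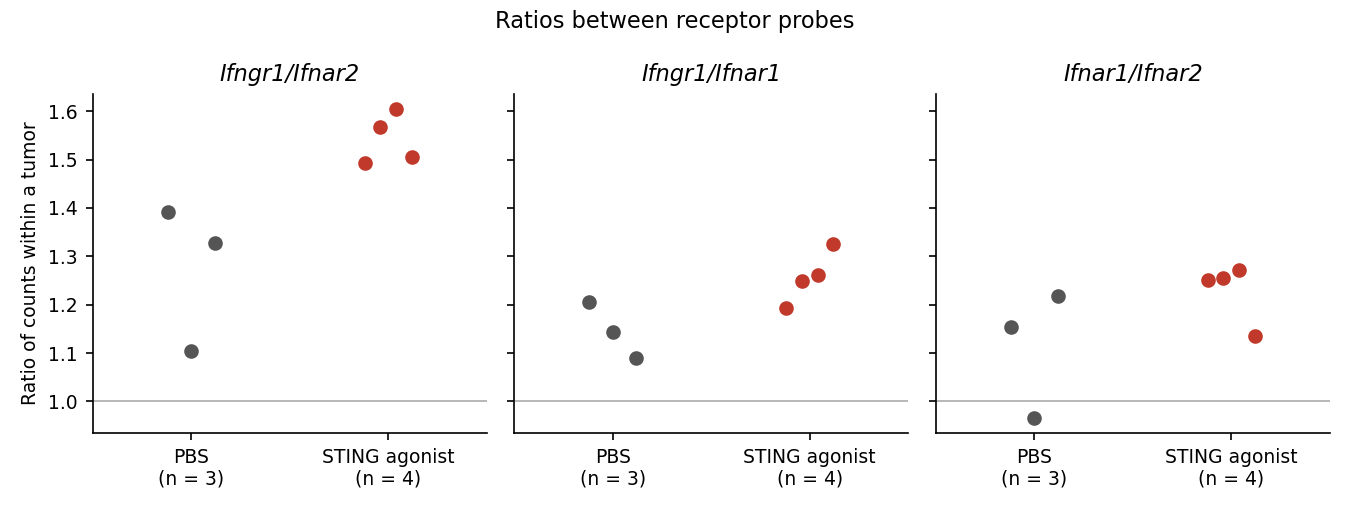
Ratio of the counts of 2 receptor probes within each tumor, PBS in grey (controls 2 and 4 as 1 point) and STING agonist in red. Ifngr1/Ifnar2 was 1.11 to 1.39 in the PBS-treated and 1.49 to 1.605 in the STING agonist-treated tumors, and the other 2 ratios overlapped.

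The genes whose course over the 7 samples was most like that of each receptor were found by the root mean square difference of centered log2(normalized count + 1) values over 516 genes. Among the 3 nearest to Ifngr1 were Nfkbia (0.049) and Psma2 (0.064), against a median of 0.35 over all genes compared. Among those of Ifnar1 was Ewsr1 (0.065). For Ifnar2 they were Fn1 (0.067), Axl (0.070) and Ly96 (0.076), with a median of 0.38. The 6 genes named had log2 fold changes between -0.056 and 0.22, with a lowest adjusted p of 0.450 (edgeR).

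Genes upstream and downstream of these ligands and receptors were described by lists. Over the whole panel, edgeR's quasi-likelihood test gave 0 of 750 genes (0%) an adjusted p under 0.05. Before adjustment, 133 genes (17.7%) had a p under 0.05 with higher counts after treatment and 10 (1.33%) with lower ones, against 87 and 40 under TMM normalization. DESeq2's Wald test called 52 genes after adjustment, limma 0, and the per-gene test of the methods 0. Without STING agonist 3 edgeR called 7 genes and without control 3 it called 1. The unadjusted count of 143 in edgeR went to 84 without STING agonist 1 and to 89 without STING agonist 4. In the lists below, edgeR called 0 genes after adjustment, and DESeq2 and limma called 0 as well except where stated.

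Induction of type I interferon was covered by 13 genes, from STING itself (Tmem173) and nucleic acid sensors to interferon regulatory factors. At an unadjusted p under 0.05, 2 were higher (15.4%, beside 17.7% of the panel), Tlr9 and Irf7, and 0 were lower. Over the alternatives 0 to 4 were higher, with 1 under TMM and 0 with the total count, without controls 2 and 4 and without STING agonist 1. In Tmem173, Irf7, Tlr3 and Tlr9, 4 genes, all treated tumors were above all controls, beside 16.8% of the panel. The median log2 fold change was 0.21, that of the panel, and it turned to -0.030 under TMM. Irf7, which amplifies interferon-α transcription, had 343, 224 and 380 normalized counts in the controls and 638, 427, 394 and 484 in the treated tumors, a log2 fold change of 0.62 (edgeR, SE 0.24, adjusted p = 0.223), and 0.385 under TMM. Tlr9, a DNA sensor of endosomes, had a log2 fold change of 1.16 (edgeR, SE 0.43, adjusted p = 0.220). It was above background in 2 controls and 4 treated tumors, so the control group was not called when each tumor was counted. Tbk1, the kinase downstream of STING, had 114 to 135 normalized counts in the controls and 120.0 to 131 in the treated tumors, with a log2 fold change of 0.023 that was -0.23 under TMM.

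Of 7 genes acting next to the receptors, 2 were higher at an unadjusted p under 0.05, Stat2 and Socs1, which were also the 2 whose groups did not overlap, and 0 were lower. Of the panel, 17.7% were higher at this p and 16.8% higher without overlap. Over the alternatives 0 to 4 of the 7 were higher, with 0 under TMM, DESeq2's size factors, the total count and the positive probes and without STING agonist 1. Stat2, which carries the type I signal to the nucleus, had a log2 fold change of 0.52 (edgeR, SE 0.18, adjusted p = 0.203), and 0.272 under TMM. Socs1, an inhibitor of JAK kinases, had 222, 248 and 255 normalized counts in the controls and 388, 319, 263 and 446 in the treated tumors, a log2 fold change of 0.55 (edgeR, SE 0.20, adjusted p = 0.217), and 0.289 under TMM. Socs3 had a log2 fold change of 0.17 and overlapping groups, and was -0.052 under TMM, 0.503 without control 3 and 0.0036 without STING agonist 4. The median of the 7 genes was 0.36, and 0.12 under TMM.

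Of 18 type I interferon targets, 5 (27.8%) were higher at an unadjusted p under 0.05 and 0 were lower, beside 17.7% and 1.33% of the panel. They were Isg20, Ifit2, Ifit3, Ifi44 and Bst2. None of these calls held under TMM, DESeq2's size factors or the total count, where 0 of the 18 were higher and 1 was lower. The per-gene test of the methods gave 1 higher, and edgeR gave 2 without STING agonist 1 and 7 with all 8 tumors separate. The groups did not overlap in 4 (22.2%, beside 16.8% of the panel), Isg20, Ifit3, Bst2 and Rsad2. The median log2 fold change was 0.36, and 0.12 under TMM. Ifit3, an antiviral protein, had 979, 749 and 855 normalized counts in the controls and 1579, 1352, 1009 and 1150 in the treated tumors, a log2 fold change of 0.56 (edgeR, SE 0.19, adjusted p = 0.191), and 0.315 under TMM. Ifi44 had a log2 fold change of 0.69 (edgeR, SE 0.23, adjusted p = 0.191), and 0.449 under TMM, with 3 of 4 treated tumors above every control. Ifitm1, which restricts virus entry, had 303, 758 and 405 normalized counts in the controls and 596, 216, 457 and 409 in the treated tumors, a log2 fold change of -0.22 (SE 0.38) that was -0.538 under TMM and 0.24 without controls 2 and 4.

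Of 16 interferon-γ targets, 14 (87.5%) were higher at an unadjusted p under 0.05 and 0 were lower, beside 17.7% of the panel. In 12 of the 16 the groups did not overlap, all higher, beside 16.8% of the panel. The first count was 7 in the per-gene test of the methods and 11 to 15 in the other alternatives. All 16 log2 fold changes were above 0, with a median of 1.41, and 1.19 under TMM. DESeq2's Wald test called 11 of the 16 after adjustment, and edgeR called 4 without STING agonist 3. The list holds genes that other signals also induce, and it was chosen with results of these data known. Its largest folds were in H2-Aa (6.34), H2-Ab1 (5.76) and Cd74 (5.63), genes of antigen-presenting cells. The leukocyte marker Ptprc and the myeloid markers Csf1r and Itgax were also higher without overlap (folds of 2.4, 1.96 and 4.25). Itgax was under background in the controls, so its fold rests on few counts. The other macrophage markers, Cd68, Cd14, Mrc1 and Cd163, overlapped, with folds of 1.24, 1.06, 0.835 and 0.402. So did the dendritic cell markers Flt3 (0.773) and Xcr1 (1.40, 2 to 10 raw counts). The part of these cells in the values of the list was not tested. Cxcl9, a chemokine for T cells induced chiefly by interferon-γ, had 204, 79.3 and 259 normalized counts in the controls and 871, 875, 468 and 1239 in the treated tumors. The lowest treated tumor was STING agonist 3, the tumor with 5 Ifng counts. Irf1, a transcription factor of the interferon-γ response, had 1142, 852 and 999.98 normalized counts in the controls and 2023, 2050.0, 1449 and 2517 in the treated tumors, with the same tumor lowest. Nos2, which makes nitric oxide in macrophages, had a log2 fold change of 0.55 (edgeR, SE 0.39, adjusted p = 0.470) with overlapping groups, and 0.298 under TMM and 0.266 without STING agonist 4. Averaged over the 16 targets, log2(normalized count + 1) was 6.60, 5.71 and 6.87 in the 3 control samples and 8.19, 7.65, 7.32 and 8.47 in STING agonist 1 to 4. The order of the treated tumors in this mean, 4, 1, 2 and 3, was also their order in raw Ifng counts, while by normalized Ifng counts STING agonist 1 was above 4. The controls did not share an order, with control 1 lowest in Ifng (3.70) and the mean of controls 2 and 4 lowest in the targets (5.71). For the 18 type I targets the same mean was 8.48, 8.40 and 8.71 in the 3 control samples. It was 9.06, 8.76, 8.73 and 8.80 in STING agonist 1 to 4. The treated order there, 1, 4, 2 and 3, was that of normalized Ifng counts, so such a match was not particular to the interferon-γ targets.

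**Figure D5:**
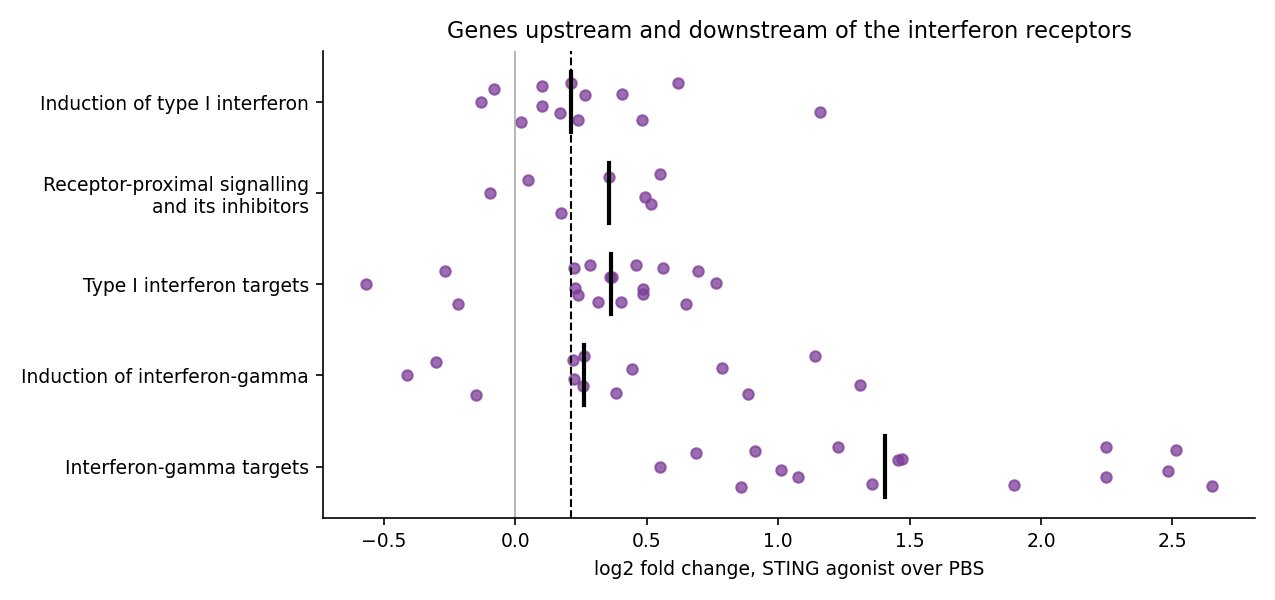
Log2 fold change (STING agonist over PBS, housekeeping scaling) of each panel gene (points) in 5 lists around the interferon genes, with the median of each list (black bar) and of the panel (dashed line, 0.21). The 16 interferon-γ targets had a median of 1.41, whereas the other lists had medians of 0.21 to 0.36.

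Of 13 genes that promote interferon-γ production, 3 were higher at an unadjusted p under 0.05, Il27, Il12rb1 and Il12rb2, and 0 were lower, beside 17.7% and 1.33% of the panel. Over the alternatives 1 to 4 were higher, with 1 under TMM, DESeq2's size factors, the total count, the positive probes, the filter on mean count and DESeq2's Wald test, and without controls 2 and 4, control 1, STING agonist 1 or STING agonist 3. The groups did not overlap in 4, these and Il18r1, all higher, beside 16.8% of the panel. The median log2 fold change was 0.26, and 0.043 under TMM, and 6 of the 13 genes had a mean of at least 20 raw counts. Il12rb1, a chain of the interleukin-12 receptor on T and NK cells, had 62.9, 30.9 and 67.7 normalized counts in the controls and 98.1, 84.3, 70.5 and 148 in the treated tumors, a log2 fold change of 0.88 (edgeR, SE 0.36, adjusted p = 0.231). Il27 had 1 to 8 raw counts, under the background of each of the 8 tumors, and Il12rb2 had 1 to 9, above it in 0 controls and 2 treated tumors. Il18r1 had 6 to 24 raw counts, above background in 1 control and 4 treated tumors. Eomes, a transcription factor of cytotoxic lymphocytes, had a log2 fold change of -0.15 (SE 0.27) and overlapping groups, and was -0.408 under TMM and -0.048 without STING agonist 2. Of the type III interferons, which use another receptor, Ifnl2 was on the panel with 8, 4, 18 and 3 raw counts in the controls and 2, 4, 9 and 5 in the treated tumors, and control 3 was again the highest.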

How the data were processed

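The authors deposited nCounter counts of 784 probes for each of the 8 tumors as whole numbers, without scaling or background subtraction, and the lowest count of any gene was 1. Of these, 750 measure immune-related genes and 20 housekeeping genes, and 8 are negative and 6 positive control probes. Groups and replicate numbers came from the sample labels, and dose and days from the study's methods. Members and lists were chosen with earlier results of these data known.

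Counts were divided by the geometric mean of the housekeeping genes of each tumor. Controls 2 and 4 entered the fit as their rounded mean and normalized counts as the plain mean. Groups were compared with edgeR 4.0.16 (R 4.3.3; quasi-likelihood test, no filter, no covariate) with Benjamini-Hochberg adjustment over 750 genes, tested on simulated data. Alternatives used DESeq2 1.42.0 and limma 3.58.1. Permutation tests were two-sided, over log2(normalized count + 1). Fold changes are ratios of mean normalized counts, and log2 fold changes are those of edgeR. Besides the 8 members, the genes named were, from each pathway list, the 2 with the lowest unadjusted p and, at a mean of 20 counts or more, the 1 with the highest, and for each receptor the 3 genes most like it, of which 2 genes are not reported here. Other genes were named after their values were seen. With counts near background, differences of single counts cannot be resolved. Intervals come from the fit. Promoters and gene neighbours came from RefSeq (GRCm38.p6), where the transcripts of all 8 members matched.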

Additional observations from a re-analysis of the deposited data

Results flagged for a closer look

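Of 30 genes tested, 2 had 1 treated tumor far from the other 3. Ifna1 was higher in STING agonist 3 than in the other treated tumors, with a distance to the next tumor of 0.903 of the whole range. Ly96 was lower in STING agonist 2, with 0.867 of the range. Both are past Dixon's 95% limit for a group of 4, which chance passes in about 1 of 20 groups. The controls, counted as 3 samples, are too few for this test.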

How the results depend on the processing

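The counts of ligands limit every statement on them, and the receptors are limited by 3 control samples. No interferon gene had an adjusted p under 0.05 in the alternatives that gave one (DESeq2 gave none for the 5 ligands). Over the scalings, tests (edgeR, DESeq2, limma and the per-gene test of the methods) and left-out tumors, the log2 fold change of Ifng lay between 0.77 and 2.01, above 0 in each of 18, with an adjusted p of 0.160 to 0.533. The filter on mean count leaves out the 5 ligands. That of Ifngr1 lay between -0.026 and 0.285, with an adjusted p of 0.170 to 0.98. The causes of the shifts below were not tested.

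The number of panel genes with an adjusted p under 0.05 was 0 to 7 and with an unadjusted one 84 to 160 when 1 tumor was left out, and 52 passed the adjusted threshold in DESeq2's Wald test. Interferon-γ targets gave 11 there, and 0 to 4 when 1 tumor was left out. The log2 fold changes under TMM, the size factors of DESeq2 and the total count were, for Ifnar1, -0.141, -0.154 and -0.0964, Tbk1 -0.231, -0.243 and -0.179, Socs3 -0.052, -0.0705 and -0.0456, Ewsr1 -0.207, -0.221 and -0.164, Axl -0.19, -0.202 and -0.125, Ly96 -0.198, -0.211 and -0.136, Psma2 -0.0976, -0.11 and -0.0391, and the median of the genes inducing type I interferon -0.0296, -0.0458 and -0.0149. Under the first 2 of these, Ifngr1 was -0.0133 and -0.0262 and Nfkbia -0.0222 and -0.0356. The median of the genes next to the receptors was 0.12 and 0.105 under TMM and the size factors, and that of the type I targets 0.125, 0.112 and 0.151 with the total count last. Ifnar2 turned to 0.0108 with the positive probes and 0.0233 without controls 2 and 4, where Ifitm1 was 0.243. Ifnb1 was 0.00901 with the positive probes, 0.127 with the negative probes subtracted, 0.00161 in the per-gene test of the methods (controls 2 and 4 as their rounded mean) and 0.101 with all 8 tumors separate, and lay between -0.233 and 0.264 when 1 tumor was left out. Tbk1 lay between -0.0369 and 0.0881 there.

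With all 8 tumors as separate samples the unadjusted p was 0.042 for Ifngr1 and 0.038 for Ifng (edgeR). It was 0.0032 for Ifngr1 in the per-gene test of the methods, and 0.017 and 0.043 for Ifng without STING agonist 3 and without control 3 (edgeR). For Ifna1 it was under 0.05 in 4 of 18 alternatives, with a lowest of 0.019, all lower after treatment and with counts near background. Against the mean of the negative probes alone, 16 of 20 ligand measurements in the controls and 19 in the treated tumors were above background. Tumors above it, in controls and treated tumors, then numbered 3 and 4 for Ifna1, 3 and 3 for Ifna2, 2 and 4 for Ifna4, 4 and 4 for Ifnb1 and 4 and 4 for Ifng. Without the highest negative probe they were 4 treated tumors for Ifna1, 2 controls and 1 treated for Ifna2, and 2 controls for Ifnb1. Against the highest negative probe, 3 treated tumors were above for Ifna1, which would call it. With the mean plus 3 SD, 0 controls were above in Ifna2 and Ifng. With controls 2 and 4 as 1 sample, Ifna1 was above in 2 of 3 controls, which would call it. At the level without the highest negative probe, this also held for Ifna2 and Ifnb1. With 1 level for all tumors, 1 treated tumor was above in each of Ifna1, Ifna2 and Ifna4.

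Whether the replicate numbers pair the tumors is not given in the labels. Same-numbered tumors had correlations of -0.28 to -0.06 over 517 genes in their deviations from the group mean. With so few tumors per group, these values cannot decide it. With the replicate block and all 8 tumors separate, 0 genes had an adjusted and 172 an unadjusted p under 0.05 (edgeR), and Ifnb1 was 0.129.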

Other observations

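Of the other cell types with marker lists, summed normalized counts in control 1, the mean of controls 2 and 4, control 3 and STING agonist 1 to 4 were as follows. Endothelial markers (4 of 4 on the panel, led by Pecam1) had 239, 324 and 293 in the controls and 397, 358, 423 and 382 in the treated tumors, above every control in 4 of 4. Of these genes only Kdr did not overlap between the groups, with a fold of 2.09, while Pecam1 had 1.19 (log2 fold change -0.001 under TMM), Cdh5 1.35 and Tek 1.03. Dendritic cell markers (3 of 5, led by Flt3 with 5 to 17 raw counts) had 19.4, 22.7 and 25.2 and then 40.9, 28.1, 33.7 and 36.2. Flt3 had a fold of 0.773, and only Itgax, with 3 to 25 raw counts, was higher without overlap (log2 fold change 2.02, adjusted p = 0.171, edgeR). Itgax was under background in the controls, so this value rests on few counts. Macrophage markers (5 of 6, led by Cd68) had 1221, 737 and 1478 and then 1468, 1100.2, 1400.0 and 1439.9, within the range of the controls, with Csf1r higher without overlap and Cd163 at a fold of 0.402. Fibroblast markers (4 of 4, led by Col3a1) had 10486, 8914 and 8846 and then 7847, 8764, 6581 and 8664, all below the controls. Col3a1 and Pdgfrb were lower without overlap, while Col1a1 had a fold of 1.66 (log2 fold change 0.73, adjusted p = 0.243, edgeR), with 3 of 4 treated tumors above every control, and Thy1 1.05. Neutrophil, B cell and epithelial sums overlapped between the groups, with 1.15, 1.26 and 0.861 as the ratio of their means.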
